A study of Homo sapiens with 6 samples.

Results

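The miRNA entries numbered from miR-3000 up to, but not including, miR-4000 were described in exosomes of H1299 cells with an shRNA against WDR4. Every entry of the count table whose number lay in that range was taken, on either hairpin arm, without the entries of miR-3960, miR-3184 and miR-3529. This gave 107 of the 1247 entries, from 89 hairpins. The 2 groups were exosomes of H1299 cells that stably expressed an shRNA against WDR4 (shWDR4) and exosomes of H1299 cells that stably expressed a control shRNA, with 3 libraries each, named as independent biological repeats. H1299 is a widely used cell line from a human lung tumour of the non-small cell type, and all cells carried the label wild type for genotype and spent 48 hours in exosome-free medium before collection. How many hairpin constructs stood behind a line, and whether a line was 1 clone, is not stated in the labels. WDR4 forms, with METTL1, an enzyme that methylates guanosine at its N7 position in RNA, and the series asked what it does in the sorting of miRNAs into exosomes.

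Mature miRNAs are cut from hairpin precursors by Drosha and Dicer. An Argonaute protein then keeps a single strand of the short duplex, from the 5' arm (5p) or the 3' arm (3p), and pairs through its seed, bases 2 to 8, with target messages. The number of a miRNA follows the order in which it was registered, so entries of this range are neither a family nor a genomic cluster. Most were registered from deep sequencing of small RNA, and many lie inside host genes, opposite to better known miRNAs, or within other structured RNA. Exosomes are small vesicles released from the endosomal system and carry a selected part of the small RNA of the cell.

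The mature sequences of the entries on which the results turn are shown first, 5' to 3', with the seed in capitals. They were taken from RefSeq on GRCh38.p14, which held 97 of the 107 entries, and were chosen for their abundance, their fold or their shared seed; miR-3195 is described below by its values.
miR-3135b: gGCUGGAGcgagugcaguggug
miR-3180-3p: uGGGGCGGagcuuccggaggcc
miR-3180: uGGGGCGGagcuuccggag
miR-3196: cGGGGCGGcaggggccuc
miR-3182: gCUUCUGUaguguaguc
miR-3648: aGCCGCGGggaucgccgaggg
miR-3187-5p: cCUGGGCAgcguguggcugaagg
miR-3187-3p: uUGGCCAUggggcugcgcgg
miR-3940-5p: gUGGGUUGgggcgggcucug
miR-3620-5p: gUGGGCUGggcugggcugggcc
miR-3141: gAGGGCGGguggaggagga
miR-3605-3p: cCUCCGUGuuaccuguccucuag
Among these, miR-3180-3p, miR-3180 and miR-3196 carried the seed GGGGCGG. The entry miR-3180 is 19 nt long and is identical to the first 19 nt of miR-3180-3p, and the rule by which reads were divided between them is not known.

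The 3 libraries of each group had been joined into 1 count column, so no value below has a replicate error, and no test between the groups was run. The shWDR4 column held 552913 counts and the control column 1020282. Levels are counts scaled to a column total of 1000000 (CPM), and folds are CPM in shWDR4 over CPM in control. Folds and shares carry exact 95% intervals. These take in counting error alone, and reads copied by PCR are not separate molecules. A count of 0 allows up to 3 counts, which is 5.43 CPM in shWDR4 and 2.94 CPM in control. In pooled exosome RNA, fewer vesicles that carry a miRNA and less of it per vesicle cannot be told apart, nor can sorting and the level in the cells. The knockdown of WDR4 was not checked here, since the table holds miRNAs alone. A list of 14 miRNA markers of blood, endothelium, smooth muscle, liver and skeletal muscle had 12 entries at a lower CPM in shWDR4. Their summed level was 3357 CPM in shWDR4 and 14472.5 CPM in control, most of it from miR-126-3p (2085 and 9756 CPM). In shWDR4 miR-133a-3p and miR-206 were at 0, and in control miR-451a. All 14 markers are numbered below 1000, a range whose summed counts had a fold of 0.492. Their part in the values below was not tested.

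The entries of this number range held a like share of either column, but a few of them made up most of it. Together they had 8789 counts in shWDR4, 1.59% of the column (1.56 to 1.62), and 15268 counts in control, 1.496% (1.47 to 1.52). The fold of the sum was 1.06 (1.03 to 1.09). The single entry miR-3135b took 32.6% of the summed counts in shWDR4 and 66.7% in control. Without it the sum was 2.15-fold higher in shWDR4 (2.07 to 2.23). Without miR-3195, in turn, the fold of the sum was 0.797 (0.774 to 0.820), so the sum follows these 2 entries. With upper-quartile scaling the fold of the sum was 0.816, on the other side of 1.

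The most abundant entry, miR-3135b, was lower in shWDR4 exosomes. It had 2867 counts in shWDR4 (5185 CPM, rank 28 of all entries) and 10190 counts in control (9987 CPM, rank 18), a 1.93-fold lower level (1.85 to 2.01). Its hairpin lies on the minus strand of chromosome 6 at 32749912 to 32749979 of GRCh38, with no gene of the types searched across it. The 17-nt entry miR-3182, from an intron of the cadherin gene CDH13, had 279 counts in shWDR4 and 891 in control, 1.73-fold lower (1.51 to 1.99). Neither reached a 2-fold difference with scaling to the column totals. With upper-quartile scaling both did, at folds of 0.399 for miR-3135b and 0.444 for miR-3182. The remaining scalings brought both folds nearer to 1. They gave 0.560 to 0.649 for miR-3135b and 0.624 to 0.723 for miR-3182.

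The miR-3180 hairpins gave 3 entries, among them miR-3180-3p, the second most abundant by its mean CPM. These hairpins are annotated at 5 loci on chromosome 16, and a read of a shared mature sequence cannot be assigned to 1 of them. The 3p form had 1722 counts in shWDR4 (3114 CPM) and 1889 in control (1851 CPM), 1.68-fold higher (1.57 to 1.80). The shorter entry miR-3180, which repeats its first bases, had 205 counts in shWDR4 and 210 in control, 1.80-fold higher (1.48 to 2.19). The ratio of the 2 entries was alike in both columns, with 11.9 counts of miR-3180 per 100 of miR-3180-3p in shWDR4 and 11.1 in control. Counted together they were 1.69-fold higher (1.59 to 1.80). Over the 5 scalings the fold ranged from 1.29 to 2.10 for miR-3180-3p and from 1.38 to 2.25 for miR-3180. Each thus passed 2-fold under at least 1 scaling. The opposite arm, miR-3180-5p, had 268 counts in shWDR4 and 527 in control, and its fold of 0.938 (0.807 to 1.09) could not be told from 1 by counting error.

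**Figure D1:**
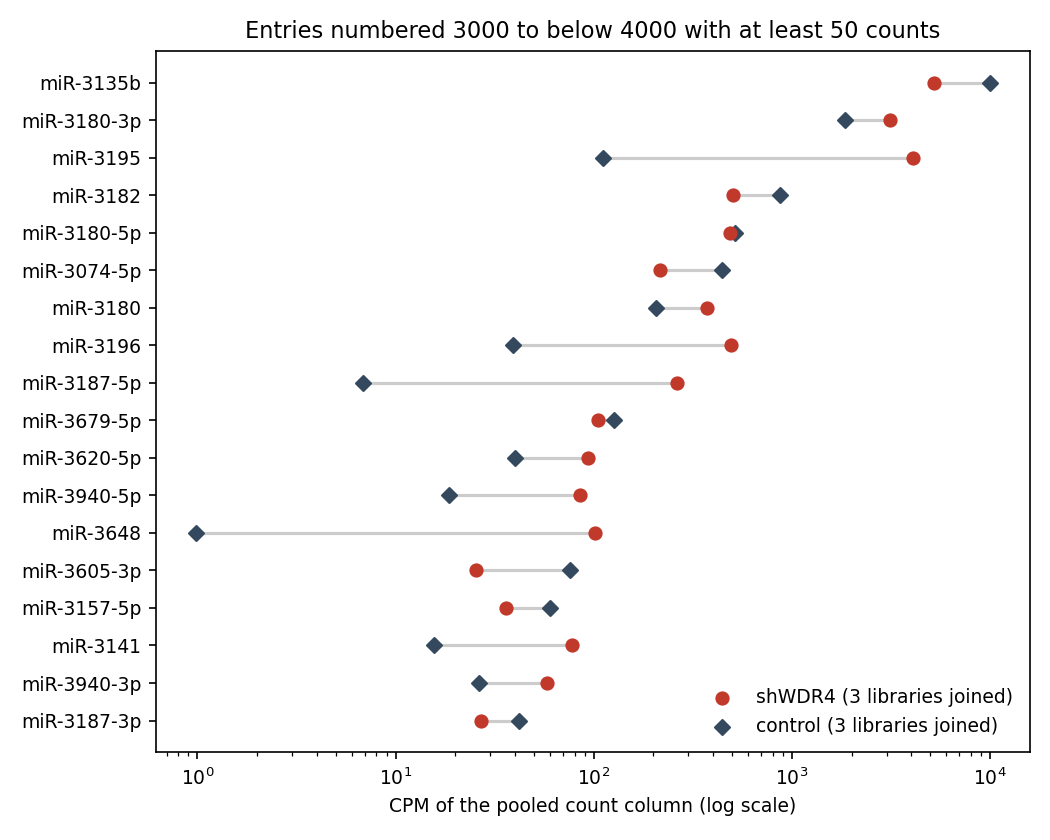
Level, in CPM on a log axis, of each of the 18 entries that had 50 counts or more, with 1 point per pooled column (circles, shWDR4; diamonds, control) and a line joining the 2. In shWDR4 miR-3195 lay at 4060 CPM beside the 3114 CPM of miR-3180-3p, whereas in control it lay at 112 CPM.

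In this range 18 entries (16.8%, against 28.0% of all entries of the table) had 50 counts or more in total. In shWDR4, 8 of the 18 (44.4%) had a level at least 2-fold higher, against 26.1% of all 349 entries of that depth. A level at least 2-fold lower was found for 2 of the 18 (11.1%), against 31.5% of the 349. The other 8 lay within 2-fold. An entry that passed the count minimum through its high column alone had to differ, so these counts describe the entries and support nothing further. With upper-quartile scaling the counts were 6 higher and 6 lower of the 18, against 76 higher and 151 lower of the 349. The median log2 fold of the 18 was 0.80, against -0.37 over all 349. With a minimum of 20 counts, which 32 entries reached, 10 were higher and 12 lower. The median was then -0.45, so its sign depends on the entries of low count. A minimum on raw totals is reached more easily by entries high in control, the deeper column. The shares and the median over all entries at a minimum of 20 are not given here. Scalings other than the column totals moved all log2 folds together, by -0.38 (upper quartile), 0.11 (median ratio), 0.16 (trimmed mean of M values) and 0.32 (totals without miR-3960). The entry miR-3960, which was left out of the entries described here, had 205546 CPM in shWDR4 and 6172 CPM in control. Under all 5 scalings 9 of the 18 stayed in the same size class, and 16 stayed on 1 side of a fold of 1. The exceptions on the side of 1 were miR-3180-5p and miR-3679-5p.

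The entry miR-3195 was second in level only to miR-3135b among these entries in shWDR4 exosomes, and far lower in control exosomes. It had 2245 counts in shWDR4 (4060 CPM, rank 35) and 114 in control (112 CPM, rank 204), 36.3-fold higher (30.1 to 44.3). Its hairpin lies on the plus strand of chromosome 20 at 62064802 to 62064885, opposite an exon of TAF4, a subunit of the general transcription factor TFIID. On the same chromosome, at 63238779 to 63238842, miR-3196 lies in an intron of BIRC7, an inhibitor of apoptosis. It had 272 counts in shWDR4 and 40 in control, 12.5-fold higher (8.98 to 18). Its seed is that of miR-3180-3p, whose fold of 1.68 was far smaller. Even the lowest value over the 5 scalings was 27.9-fold for miR-3195 and 9.63-fold for miR-3196.

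Counts near the floor in control gave the largest folds with the widest intervals. The entry miR-3648 had 56 counts in shWDR4 and 1 in control, 103.3-fold higher (17.8 to 4154). It lies within the transcribed spacer of ribosomal RNA genes, and its 2 annotated copies, to which a read cannot be assigned, are on the plus strand of chromosome 21 at 8208473 to 8208652 and 8986999 to 8987178. The entry miR-3187-5p had 145 counts in shWDR4 and 7 in control, 38.2-fold higher (18.1 to 96.8). These 2 intervals overlap each other and that of miR-3195, so the 3 folds cannot be ordered.

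Smaller differences on the higher side were seen at 4 further entries. The entry miR-3141 had 43 counts in shWDR4 and 16 in control, 4.96-fold higher (2.74 to 9.43). From an exon of KHSRP, whose protein aids the processing of some miRNA precursors, miR-3940-5p had 47 counts in shWDR4 and 19 in control, 4.56-fold higher (2.63 to 8.24). Its partner miR-3940-3p had 32 and 27 counts, 2.19-fold higher (1.27 to 3.79). In an exon of ARF1, a small GTPase of vesicle budding, miR-3620-5p had 52 counts in shWDR4 and 41 in control, 2.34-fold higher (1.52 to 3.61). With upper-quartile scaling miR-3620-5p and miR-3940-3p were under 2-fold, at folds of 1.80 and 1.68.

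The 2 entries at least 2-fold lower were miR-3605-3p and miR-3074-5p. From an exon of PHC2, a Polycomb protein gene, miR-3605-3p had 14 counts in shWDR4 and 77 in control, 2.98-fold lower (1.67 to 5.71). The entry miR-3074-5p had 120 counts in shWDR4 and 452 in control, 2.04-fold lower (1.67 to 2.52), and its fold ranged from 0.376 to 0.613 over the 5 scalings. The remaining unmentioned entries of that depth stayed within 2-fold: miR-3679-5p had 58 counts in shWDR4 and 129 in control, miR-3157-5p 20 and 61, and miR-3187-3p 15 and 43. The intervals of all 3 held a fold of 1.

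**Figure D2:**
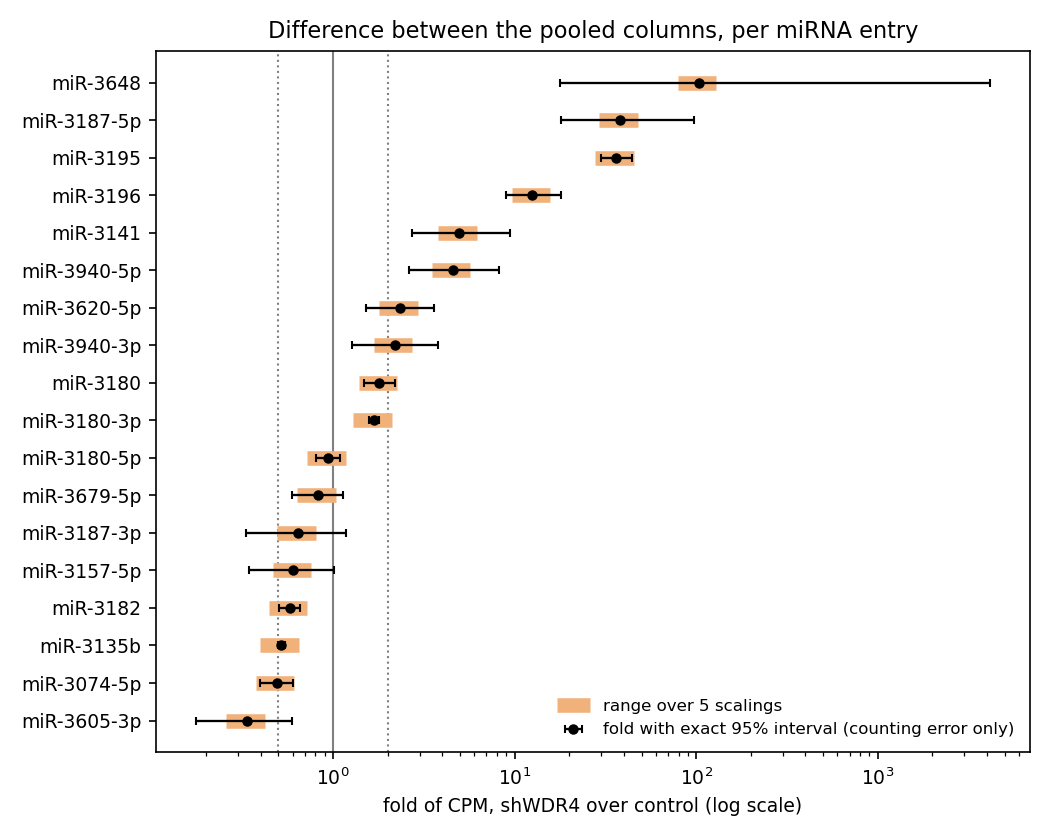
Fold of CPM, shWDR4 over control, for the 18 entries with at least 50 counts, on a log axis. Points are folds with exact 95% intervals (counting error only). Orange bars give the range over 5 scalings, and vertical lines mark folds of 0.5, 1 and 2. Of the intervals, 6 lie wholly above 2 and none wholly below 0.5. The same count over all 349 entries is not given here, so it describes these entries alone.

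Arms of the same hairpin can be compared within a column, where scaling has no part. Of the 17 hairpins with both arms counted, 11 had at least 20 counts in all. At miR-3187 the more abundant arm was not the same in the 2 columns. The 5p arm had 145 counts beside 15 of the 3p arm in shWDR4, a share of 90.6% (85.0 to 94.7). In control it had 7 beside 43, a share of 14% (5.82 to 26.7). The 5p arm was higher in shWDR4 and the 3p arm was not, and the hairpin, on chromosome 19 at 813584 to 813653, lies opposite an exon of PLPPR3. At miR-3145, in an intron of NHSL1, the 5p and 3p arms had 4 and 0 counts in shWDR4 and 0 and 20 in control, so the 2 columns share no arm.

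At 7 of the other 9 hairpins the same arm led in either column, the exceptions being miR-3940 and miR-3150a. The 5p arm of miR-3180 took 13.5% (12 to 15.0) in shWDR4 and 21.8% (20.2 to 23.5) in control. These shares set miR-3180-5p against miR-3180-3p alone and leave out the entry miR-3180, which repeats the 3p sequence. For miR-3620 it took 83.9% (72.3 to 92.0) in shWDR4 and 41 of 41 counts in control. The arms of miR-3162, in an intron of the oxysterol-binding protein gene OSBP, had 21 and 6 counts in shWDR4 and 27 and 0 in control. At miR-3605 the 5p arm had 0 of 14 counts in shWDR4 and 12 of 89 in control, and at miR-3679 the 3p arm had 0 counts in shWDR4 and 1 in control. For miR-3940 the 5p share was 59.5% (47.9 to 70.4) in shWDR4 and 41.3% (27 to 56.8) in control, with intervals that overlap. The remaining 3, miR-3127, miR-3150a and miR-3617, had between 26 and 30 counts each and overlapping intervals.

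**Figure D3:**
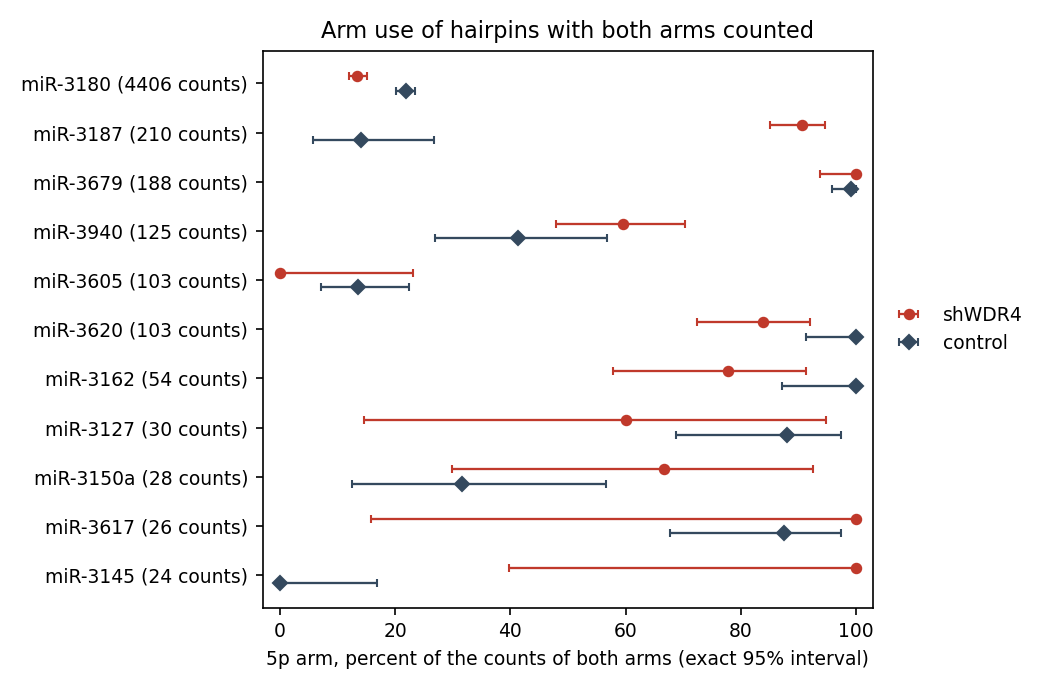
Percent of the counts of both arms that fell on the 5p arm, for the 11 hairpins with at least 20 counts (number in brackets), with exact 95% intervals; circles are shWDR4 and diamonds control. The entry miR-3180, which has no arm in its name, is left out of the miR-3180 hairpin. At miR-3187 the share was 90.6% in shWDR4 and 14% in control, and at miR-3145, with 4 counts in shWDR4 and 20 in control, all counts lay on opposite arms.

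Detection differed between the columns mainly at the lowest counts. Of the 107 entries 88 were detected in shWDR4 (82.2%, against 85.1% of all entries of the table) and 70 in control (65.4%, against 72.7%). Both columns held 51 (47.7%, against 57.7%), shWDR4 alone 37 (34.6%, against 27.3%) and control alone 19 (17.8%, against 14.9%). Thinned to the depth of shWDR4, the control column would be expected to show 65.3 of the 107. Over all entries of the table, 1061 were detected in shWDR4, where 862 would be expected in control at that depth. With at least 3 counts required, 62 of the 107 were left in shWDR4 and 60 in control, where 52.3 would be expected at the depth of shWDR4. With at least 10 counts required, 26 were left in shWDR4 and 40 in control, where 25.7 would be expected at that depth. The median count of a detected entry was 4 in shWDR4 and 11.5 in control. In this range the surplus of shWDR4 over the depth-matched control thus lay among entries under 10 counts. The numbers with at least 3 and at least 10 counts are not given here for all entries. Entries of 1 to 3 counts numbered 35 in shWDR4 and 14 in control.

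Entries seen in 1 column alone were thin in either. The 37 found in shWDR4 alone had 1 to 12 counts with a median of 3. Those with the most, named after their values were seen, were miR-3665 with 12, opposite an exon of SLAIN1, miR-3620-3p with 10 and miR-3663-3p with 9. Against the floor of 3 counts in control they were 7.38-fold, 6.15-fold and 5.54-fold higher. These values leave out the counting error of the 12, 10 and 9 counts. The 19 found in control alone had 1 to 21 counts with a median of 7. Of these, miR-3192-5p, in an intron of the RNA polymerase subunit gene POLR3F, had 21 counts. So had miR-3177-3p, in an intron of the scaffold gene MAPK8IP3. Against the floor of 3 counts in shWDR4 both were 3.79-fold lower there, again without the counting error of the 21 counts. With 20 counts miR-3145-3p was 3.61-fold lower by the same measure.

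The 89 entries under 50 counts held 329 counts in shWDR4 and 534 in control, a fold of 1.14 (0.988 to 1.31). By total count, 14 had 20 to 49, 19 had 10 to 19, 31 had 4 to 9 and 25 had 1 to 3. A higher CPM in shWDR4 was had by 4 of the 14, 7 of the 19, 21 of the 31 and 20 of the 25. These classes go by raw totals, and the control column was the deeper. At an equal CPM, an entry high in control alone thus fell in a higher class than an entry high in shWDR4 alone. The same counts over all entries are not given here, so these describe the entries and support nothing further. Among the thin entries, again named after their values were seen, miR-3188 had 34 counts in shWDR4 and 4 in control, 15.7-fold higher (5.59 to 60.8). From an exon of the chromatin remodeller gene CHD2, miR-3175 had 17 and 1 counts, 31.4-fold higher (4.92 to 1311). Also above 1, in an intron of IHH, the gene of the signal protein Indian hedgehog, miR-3131 had 14 counts in shWDR4 and 7 in control, 3.69-fold higher (1.39 to 10.8). In an exon of HSP90B1, a chaperone gene of the endoplasmic reticulum, miR-3652 had 4 counts in shWDR4 and 27 in control, 3.66-fold lower (1.27 to 14.4). Intervals below 1 were also found for miR-3928-3p, with 4 counts in shWDR4 and 23 in control, for miR-3127-5p, with 3 and 22, and for miR-3617-5p, with 2 and 21. The intervals of miR-3138, miR-3147, miR-3162-5p and miR-3178 held a fold of 1. Their counts were 12, 6, 21 and 6 in shWDR4 and 20, 24, 27 and 25 in control.

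In the authors' deposited table, 13 of the 107 entries were marked as higher in shWDR4 (12.1%, against 15.4% of all entries) and 7 as lower (6.54%, against 10.8%). Of these 20 marks in the authors' deposited table, 10 belong to entries with under 50 counts over both columns. The marks of the authors' deposited table compare 2 pooled columns and hold no spread between repeats.

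Of the entries opposite to better known miRNAs, 1 had counts enough to be set beside its partner. The hairpin of miR-3074, on chromosome 9 at 95086014 to 95086094, lies on the other strand of miR-24-1. Its 5p product is the reverse complement of miR-24-3p over 20 nt, shown in capitals.
miR-3074-5p: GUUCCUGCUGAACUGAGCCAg
miR-24-3p: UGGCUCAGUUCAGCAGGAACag
The sources used here do not say whether reads were assigned by strand. The partner miR-24-3p had 520 counts in shWDR4 and 1709 in control, 1.78-fold lower (1.61 to 1.97), and the intervals of the 2 folds overlap. Per 100 counts of miR-24-3p there were 23.1 of miR-3074-5p in shWDR4 and 26.4 in control. On the other strand of miR-338, miR-3065-5p had 0 counts in shWDR4 and 6 in control, too few for a statement. Entries of miR-3120 and miR-3591 were not among the entries analysed here.

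Of the hairpins listed for overlap with ribosomal or small nucleolar RNA, miR-3648 (above) and miR-3651 were among the entries. Overlapping the small nucleolar RNA SNORA84 inside IARS, miR-3651 had 0 counts in shWDR4 and 1 in control. Apart from miR-3605 in PHC2 (above), the hosts listed for their known function gave thin entries. In an intron of DICER1, the gene of the enzyme that trims miRNA hairpins, miR-3173-3p had 5 counts in shWDR4 and 13 in control, a fold of 0.71 (0.198 to 2.12). In SLC9A3R1, a scaffold of membrane proteins, miR-3615 had 3 and 18 counts, and its fold of 0.308 (0.058 to 1.05) could not be told from 1. In TRIM25, a ubiquitin ligase of antiviral signalling, miR-3614-5p had 0 and 7 counts. Opposite an exon of the phosphatase gene PPP2CA, miR-3661 had 2 and 14, and in DLEU2, the host of miR-15a and miR-16-1, miR-3613-3p had 2 and 7.

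By annotation, 88 of the 89 hairpins could be placed, and 62 had a host gene on the same strand at 1 locus or more. The 14 single-locus hairpins in an exon of such a host gave 18 entries, with 199 counts in shWDR4 and 257 in control. The 40 in introns gave 48 entries, with 782 counts in shWDR4 and 1436 in control. Opposite to a gene lay 13 hairpins with 15 entries, at 2559 counts in shWDR4 and 674 in control. The largest part came from miR-3195 in shWDR4 (2245 counts) and from miR-3074-5p in control (452 counts). Outside the gene types searched, other miRNA genes aside, lay 12, at 2970 counts in shWDR4 and 10265 in control. Most of these counts came from miR-3135b. The remaining 9 placed hairpins, with 13 entries, have several loci and held 2277 counts in shWDR4 and 2635 in control. Few entries of 50 counts or more fell in each class, to be read beside the 26.1% higher and 31.5% lower over all 349. In exons 3 of 4 were at least 2-fold higher and 1 lower. Opposite to a gene 2 of 4 were higher and 1 lower. In introns 1 of 4, at several loci 1 of 4 and outside the gene types searched 1 of 2 were higher, and 0 lower.

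Base composition varied with the fold. The 7 sequenced entries that were at least 2-fold higher, all of the 8 but miR-3195, had between 68.2% and 88.9% G and C, with miR-3196 the highest and a median of 75%. The 8 within 2-fold had 47.1% (miR-3182) to 77.3% (miR-3180-3p), and the 2 lower ones, miR-3605-3p and miR-3074-5p, had 56.5% and 57.1%. Across the 17 entries with a sequence, the percent of G and C and the log2 fold had a Pearson r of 0.62 and a Spearman rho of 0.70. Across 294 other entries of that depth these were 0.52 and 0.55. All points share the same pooled columns, and miR-3180 and miR-3180-3p share their sequence, so these values are descriptions. Runs of GGG, searched on the RNA strand, were in 6 of the 7 higher entries, in 4 of the 8 within 2-fold and in 0 of the 2 lower ones. Outside this range they were in 48 of 75 higher entries, in 57 of 127 within 2-fold and in 25 of 92 lower ones. They were in 44 of all 97 sequences of this range (45.4%) against 42.4% of the other 1018 entries. The letters GGAG, part of a motif linked to exosome sorting, were in 1 of the 7 higher, 3 of the 8 within 2-fold and 0 of the 2 lower entries. Outside this range they were in 19 of 75 higher, 26 of 127 within 2-fold and 13 of 92 lower entries. Over all depths they were in 27.8% of the sequences of this range against 21.5% of the others. Over entries of any depth, the 32 sequenced ones found in shWDR4 alone had a median of 60.5% G and C, the 19 found in control alone 50%, and the 46 found in both columns 60.9%. Outside this range the medians came in the same order, at 57.9% for shWDR4 alone, 52.9% for control alone and 59.1% for both.

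**Figure D4:**
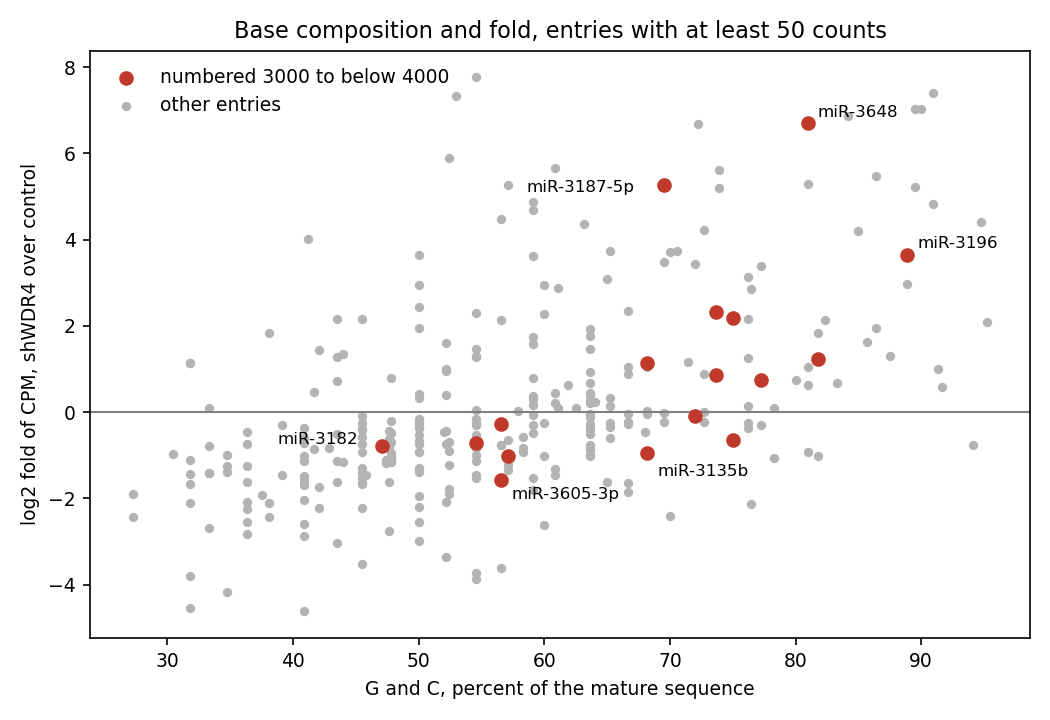
Percent of G and C in the mature sequence against the log2 fold of CPM, shWDR4 over control, for entries with at least 50 counts. Red points are the 17 entries of this range with a sequence and grey points the 294 others; the 7 red points at least 2-fold higher lie at 68.2% G and C or above, and the 2 at least 2-fold lower at 56.5% and 57.1%.

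The same values were set beside other ranges of miRNA numbers. Entries numbered below 1000, which hold the long-known miRNAs, had 39.0% of the counts in shWDR4 and 79.2% in control, and of 212 with 50 counts or more 25 were 2-fold or more higher and 94 lower. From 1000 to below 3000, 11 of 33 were higher and 4 lower, with a median log2 fold of 0.09. From miR-4251 to miR-4540, 9 of 13 were higher and 3 lower, with a median of 2.85, and from miR-4632 to miR-4804, 8 of 12 were higher and 1 lower, with a median of 2.65. The summed share of the last range was 20.0-fold higher in shWDR4 (19.2 to 20.8). The median of 0.80 found here lay between those of the ranges on either side. No test of these differences was run.

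**Figure D5:**
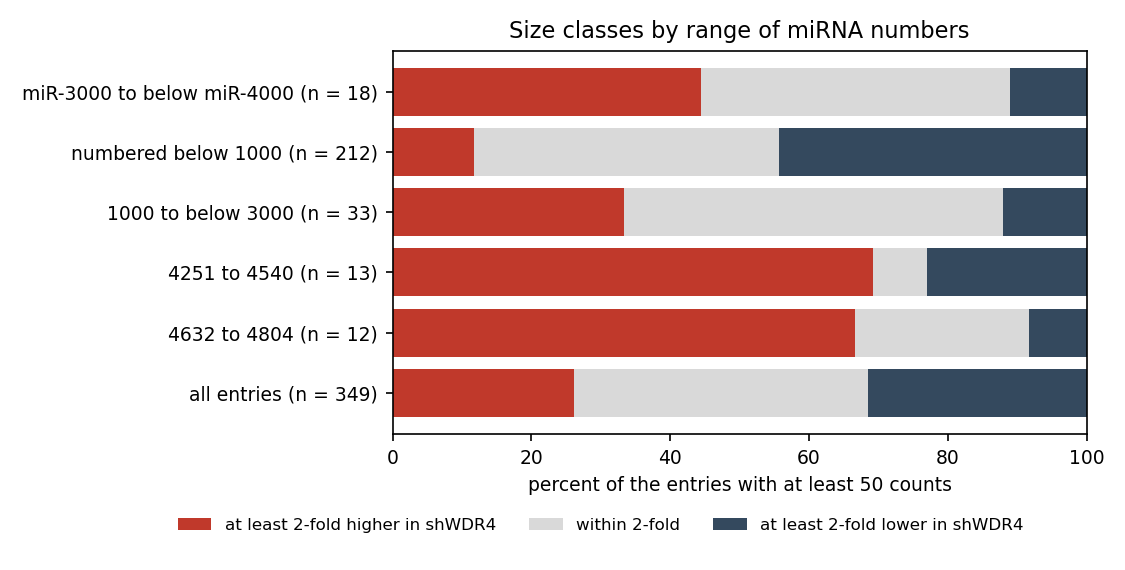
Percent, among entries of 50 counts or more, that were at least 2-fold higher, within 2-fold or at least 2-fold lower in shWDR4, by range of miRNA numbers, with the number of such entries in brackets. The range from 3000 had 44.4% higher and 11.1% lower, against 26.1% and 31.5% over all 349 entries.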

How the data were processed

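Exosomal small RNA of 6 libraries was sequenced after ligation of adaptors and size selection, per the labels' protocols. Per the submitters' processing notes the tools were FastQC, Trim Galore, Bowtie, SAMtools and edgeR; roles and versions are not stated there. The deposited values are whole-number read counts per mature miRNA, taken as not normalized because they are whole and their totals differ, and each column joins the 3 libraries of a group, per the file headers. For the build, annotation, strand setting and reads with several matches, the method is not given in the sources used here. Beside the counts, the authors deposited a log2 fold, a z-score, p-values and q-values for the 2 pooled columns, and marks of significance. The deposited normalized log2 fold, which the authors took as control over shWDR4, was recomputed for all 927 entries that have one, with a 0 as 0.5 counts. The deposited z-score, a score without a stated formula, was not used.

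Here counts were divided by column totals (Python 3.11.15, SciPy 1.17.1) and exact (Clopper-Pearson) 95% intervals were computed. Those of a fold treat the total of an entry as fixed. The edgeR test planned for values per library was not run, since pooled columns hold none. Differences of 2-fold were counted among entries whose total reached 50. A 0 stands as 3 counts. Interval code was tested on simulated data. Alternatives were 4 other scalings (trimmed mean of M values from edgeR 4.0.16), minimums of 20 and 200 counts, and sets without single entries or without hairpins of several loci. Hairpin positions and hosts are from GENCODE release 29 (GRCh38), matched by name, where an exon of any annotated transcript counts as exonic. Overlaps were searched among protein-coding, long non-coding and small RNA genes and some types of pseudogene, not among all gene types.

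The entries and lists were chosen with earlier results of these data known. The text names all entries with at least 50 counts, the 5 largest folds in each direction among them, those at 0 in 1 column with at least 20 counts, members of 3 lists (opposite strand, ribosomal or nucleolar overlap, hosts), and hairpins with both arms and at least 20 counts. Other names were chosen after their values were seen.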

Additional observations from a re-analysis of the deposited data

How the results depend on the processing

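No paired analysis was possible because each group has 1 pooled column, and for the same reason no replicate could be left out. The number of entries at least 2-fold lower, 2 with column totals, was 1 with the trimmed mean of M values, the median ratio or totals without miR-3960, 6 with the upper quartile, 12 with a minimum of 20 counts and 1 with a minimum of 200. The number at least 2-fold higher, 8 as reported, stayed between 6 and 10 except with a minimum of 200 counts, where it was 2. The median log2 fold of 0.80 was 0.42 with the upper quartile, 1.12 without miR-3960, 0.33 with a minimum of 200 counts, 0.43 without hairpins of several loci, and -0.45 with a minimum of 20 counts whether a 0 stood as 3 or 0.5. The fold of the summed counts, 1.06, was 1.19 with the trimmed mean, 1.15 with the median ratio, 0.816 with the upper quartile, 1.33 without miR-3960 in the totals and 0.951 without hairpins of several loci. Leaving out miR-3135b gave 2.15, miR-3195 0.797 and both 1.37, the last 2 sets chosen after seeing the data, as were the joint change of the minimum to 20 and a 0 to 0.5 and the expected numbers with at least 3 and at least 10 counts. Of the 107 entries, 26 in shWDR4 and 40 in control had at least 10 counts, with 25.7 expected in control at the depth of shWDR4. A minimum of 20 or 200 counts also changes which entries are counted. The cause of these changes was not tested. Of 88 folds of single entries under other scalings, 70 lay inside their counting interval and 18 outside, and no entry past 2-fold crossed a fold of 1. Each scaling moves all folds alike, so the 70 and 18 follow the width of the intervals, which is least for abundant entries. Depth limits the 89 entries under 50 counts, most of which allow no statement on direction.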

Other observations

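Some thin entries of this range carry seeds of other miRNAs. The entry miR-3666, from an intron of FOXP2, has the seed AGUGCAA of miR-130b-3p, miR-301a-3p and miR-454-3p, and had 1 count in shWDR4 and 0 in control. With the seed CAGCAGG of miR-214-3p, miR-3619-5p, from the host transcript of let-7b, had 1 count in shWDR4 and 0 in control, as had miR-214-3p. Sharing CAGGCUC with miR-484, miR-3155a, from an intron of the glycolytic regulator gene PFKFB3, had 0 counts in shWDR4 and 10 in control. Within the range, miR-3125 and miR-3916 share AGAGGAA, with 2 and 3 counts in shWDR4 and 15 and 6 in control. The arms of miR-3130 are complementary to each other over 20 nt and come from hairpins on either strand of a FASTKD2 intron. Each had 4 counts in shWDR4 and 0 in control, and reads of one locus cannot be told from those of the other.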
